A study of Mus musculus with 8 samples.

Results

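The Cep genes are named for centrosomal proteins, and they were taken here as every gene whose symbol in the array's annotation is Cep followed by a number. The array named 37 such genes among 18193 genes, and the probe set of each was chosen by its mean signal, the highest of the gene over the 8 arrays. That choice used the level over all groups and no difference between groups. Of the 37 genes, 35 had a log2 signal above 5 on at least 2 arrays and were tested with 12177 genes in all. Cep72 and Cep135 did not pass, with highest values of 4.66 and 5.16, and were not tested. Of the 35, 29 exceeded 5 on all 8 arrays, and Cep70, Cep83os, Cep250, Cep290, Cep295 and Cep295nl did so on 4 to 7 arrays.

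Total RNA came from sorted cells of 2 mouse tumour models: a lewis lung carcinoma line, LLC, and a colon cancer line, colon26. Both carried the green fluorescent reporter EGFP under the mouse PSF1 promoter, where PSF1 is the protein of the Gins1 gene, a subunit of the replication helicase complex. The cells were grown under the skin of mice, tumours were taken after 4 weeks for LLC and 2 weeks for colon26, and dissociated cells were sorted by EGFP into low and high fractions. Each of the 4 groups (LLC low, LLC high, colon26 low and colon26 high) had 2 arrays, numbered 1 and 2. All groups carry the reporter, so no group is free of it, and sorting was on promoter activity rather than on the protein. Line and growth time differ together. The labels call the numbered samples biological replicates without saying whether they came from separate mice, so that p-values measure the spread between these samples only. The labels name no marker by which host cells were removed before the sort.

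Centrosomes organise microtubules around a pair of centrioles, which duplicate once per cell cycle, gather pericentriolar material before mitosis, and serve as the base of a primary cilium in quiescent cells. Different Cep proteins act at each of these steps: Cep152 and Cep192 bring the kinase Plk4 to the parent centriole, Cep250 and Cep68 tie the parents together, and Cep83, Cep89 and Cep164 form the distal appendages that dock the centriole at the membrane. Cep55 is an exception, since it works at the midbody, where it recruits the ESCRT machinery that cuts the bridge between daughter cells. The shared name therefore marks a place in the cell rather than a single process.

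Promoter sequence was available from RefSeq for 32 of the 37 genes, as 39 windows on GRCm38.p6, each with 250 bases before and 50 after a transcription start. Both strands were searched for the cell cycle homology word TTTGAA, for the CCAAT word, and for E2F-type words, namely TTTCCCG as the first form, with TTTGGCG as another, next the form TTTCGCG and lastly the form TTTGCCG. The runs of Cep55, Cep57, Cep57l1, Cep89 and Cep128 are printed because these genes were higher in EGFP-high cells and hold at least 1 of the words in a window, and that of Cep83 because Cep83 and Cep83os start there on opposite strands. Each run gives the 250 bases before the outermost start of the gene in the direction of transcription, with matches to any of the words in capitals.
Cep55: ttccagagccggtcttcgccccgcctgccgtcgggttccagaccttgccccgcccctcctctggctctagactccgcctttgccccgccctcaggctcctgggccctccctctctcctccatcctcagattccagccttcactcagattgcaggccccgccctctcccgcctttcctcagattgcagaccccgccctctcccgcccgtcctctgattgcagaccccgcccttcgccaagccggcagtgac
Cep57: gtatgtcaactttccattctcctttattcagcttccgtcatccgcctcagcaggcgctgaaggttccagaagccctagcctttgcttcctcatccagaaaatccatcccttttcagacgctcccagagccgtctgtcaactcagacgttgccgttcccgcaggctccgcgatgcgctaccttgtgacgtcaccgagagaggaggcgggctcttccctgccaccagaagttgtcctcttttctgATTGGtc
Cep57l1: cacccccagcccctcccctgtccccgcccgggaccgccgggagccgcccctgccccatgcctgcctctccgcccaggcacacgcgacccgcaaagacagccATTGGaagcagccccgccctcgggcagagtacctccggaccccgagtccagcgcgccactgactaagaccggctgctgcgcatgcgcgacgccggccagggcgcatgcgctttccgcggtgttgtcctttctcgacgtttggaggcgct
Cep89: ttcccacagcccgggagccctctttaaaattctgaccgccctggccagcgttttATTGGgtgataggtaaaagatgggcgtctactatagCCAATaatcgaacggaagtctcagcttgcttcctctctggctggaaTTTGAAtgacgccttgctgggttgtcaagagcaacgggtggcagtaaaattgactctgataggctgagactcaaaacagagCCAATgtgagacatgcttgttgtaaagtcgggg
Cep128: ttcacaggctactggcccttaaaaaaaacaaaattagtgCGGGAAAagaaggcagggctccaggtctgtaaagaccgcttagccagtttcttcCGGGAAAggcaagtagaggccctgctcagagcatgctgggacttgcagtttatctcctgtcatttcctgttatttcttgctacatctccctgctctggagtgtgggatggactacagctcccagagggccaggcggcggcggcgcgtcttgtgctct
Cep83: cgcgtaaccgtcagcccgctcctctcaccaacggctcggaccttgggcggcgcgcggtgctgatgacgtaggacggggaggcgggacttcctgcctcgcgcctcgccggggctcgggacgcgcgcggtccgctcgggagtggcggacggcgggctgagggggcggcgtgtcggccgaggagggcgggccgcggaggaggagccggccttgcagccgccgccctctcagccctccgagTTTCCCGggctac
The runs lie at chr19:38054734-38054983 on the plus strand for Cep55, chr9:13827108-13827357 on the minus strand for Cep57 and chr10:41809869-41810118 on the minus strand for Cep57l1. They lie at chr7:35396813-35397062 on the plus strand for Cep89, chr12:91384410-91384659 on the minus strand for Cep128 and chr10:94688540-94688789 on the plus strand for Cep83. Cep55 has no match in its run: TTTGAA stands on the opposite strand, reads TTCAAA, and has its first base 25 bases after this start and at position -33 from a second start of the gene. The word TTTGAA was present in 28.2% of the Cep windows and 17.9% of all 32851 windows. CCAAT was present in 43.6% and 37.4%, and an E2F-type word in 17.9% and 6.7%. Of the 8 genes with a window that rose in EGFP-high cells over both lines, 3 held TTTGAA, 3 held CCAAT and 2 an E2F-type word, against 5, 12 and 4 of the 22 genes with a window that were not called. Some letters are counted more than once in the Cep shares. Overlapping windows of Cep57 hold the same E2F-type word and the same CCAAT word, and those of Cep55 and of Cep57l1 the same TTTGAA. Cep83 and Cep83os, both among the 4 genes with an E2F-type word that were not called, share theirs on opposite strands. All of these are matches of letters only.

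Several facts of the whole series bear on the values. Gins1 itself was higher in EGFP-high cells of both lines, by 1.28 in LLC (adjusted p = 0.0033, limma) and by 1.07 in colon26 (adjusted p = 0.017), so its RNA followed the sort. Array medians lay between 4.76 and 5.02 (log2), with the highest on the colon26 low array numbered 2. That array also had the most genes above 5, 11869 against 10565 to 11175 on the others. The arrays numbered 1 and 2 stood apart in every group: the median signal of control transcripts at the 3′ end minus that at the 5′ end, a measure of RNA integrity and labelling, was 2.41 to 2.70 on the arrays numbered 1 and -0.01 to 0.35 on those numbered 2. Within a line, the low and the high array that share a number deviated from their groups together, with correlations of 0.89 in LLC and 0.84 in colon26, and were compared as pairs. Macrophage markers moved with the sort: 10 of 13 tested fell in EGFP-high LLC cells and 12 of 13 in EGFP-high colon26 cells. Their summed linear signal ranged from 2494 to 2768 in LLC low, from 850 to 951 in LLC high, from 6957 to 10826 in colon26 low and from 1495 to 2292 in colon26 high, with Itgam under a log2 of 5 throughout. Fibroblast markers fell too, 9 of 11 in LLC and 5 of 11 in colon26, with summed signals of 32209 to 48149 in LLC low, 10279 to 10832 in LLC high, 39936 to 49388 in colon26 low and 33496 to 34914 in colon26 high. Neutrophil markers fell in both lines, 2 of 4 in each, with summed signals of 260 to 287 in LLC low, 146 to 153 in LLC high, 2008 to 2195 in colon26 low and 551 to 661 in colon26 high, and Csf3r and Cxcr2 under 5 throughout. Endothelial markers fell in colon26, 3 of 6, and 0 of 6 did in LLC, with summed signals of 267 to 693 in LLC low, 268 to 593 in LLC high, 465 to 623 in colon26 low and 265 to 285 in colon26 high. The part of these markers in the results on Cep genes was not tested. Of the epithelial markers, Krt19, Cdh1 and Cldn7 were under 5 on all arrays, and the summed signal of the list was 5837 to 7805 in LLC and 206 to 260 in colon26. Of the markers of multiciliated cells, Foxj1, Ccno, Dnah5 and Tekt1 were under 5 on every array and no marker of the list was tested. In sorted bulk samples, fewer cells that express a gene and less RNA per cell cannot be told apart.

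A change over both lines is here the mean of the changes of the 2 lines, and need not be present in each. By that mean, 10 Cep genes were called higher in EGFP-high than in EGFP-low cells and 0 lower. They were Cep55, Cep192, Cep44, Cep57l1, Cep57, Cep76, Cep70, Cep78, Cep128 and Cep89. These 10 are 28.6% of the 35 tested, where 7.47% of all genes tested were called higher and 5.57% lower (limma with the pair as a block, Benjamini-Hochberg adjusted p under 0.05). One Cep gene had a fall with an unadjusted p under 0.05, and 16 had such a rise. The median change of the 35 genes was 0.26, against 0.04 over all genes tested. By line, 5 Cep genes rose in LLC, where 4.98% of all genes did, and 1 fell, where 6.04% did, with 11 rises and 3 falls at an unadjusted p under 0.05. In colon26, 4 rose against 2.18% of all genes, and 0 fell against 1.58%, with 11 rises and 0 falls at an unadjusted p under 0.05. Cep55 and Cep192 were called in both lines. Fitted without the pair term, limma called 0 Cep genes in any of these comparisons. For the mean of the lines 5 had an unadjusted p under 0.05, and the smallest adjusted p was then 0.27. That fit also called 0 of the 12177 genes higher in LLC, in colon26 or over both lines. It called 0, 3 and 7 of them lower, so the loss of calls was not particular to Cep genes. Without the pair numbered 2 of colon26, 2 of the 10 calls were made, Cep55 and Cep192, and without that of LLC 6 were made. Of rises in LLC, 1 was called when its first pair was left out and 3 when its second was, in place of 5. Of rises in colon26, 1 was called when its first pair was left out and 0 when its second was, in place of 4, and 0 after quantile normalization.

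**Figure D1:**
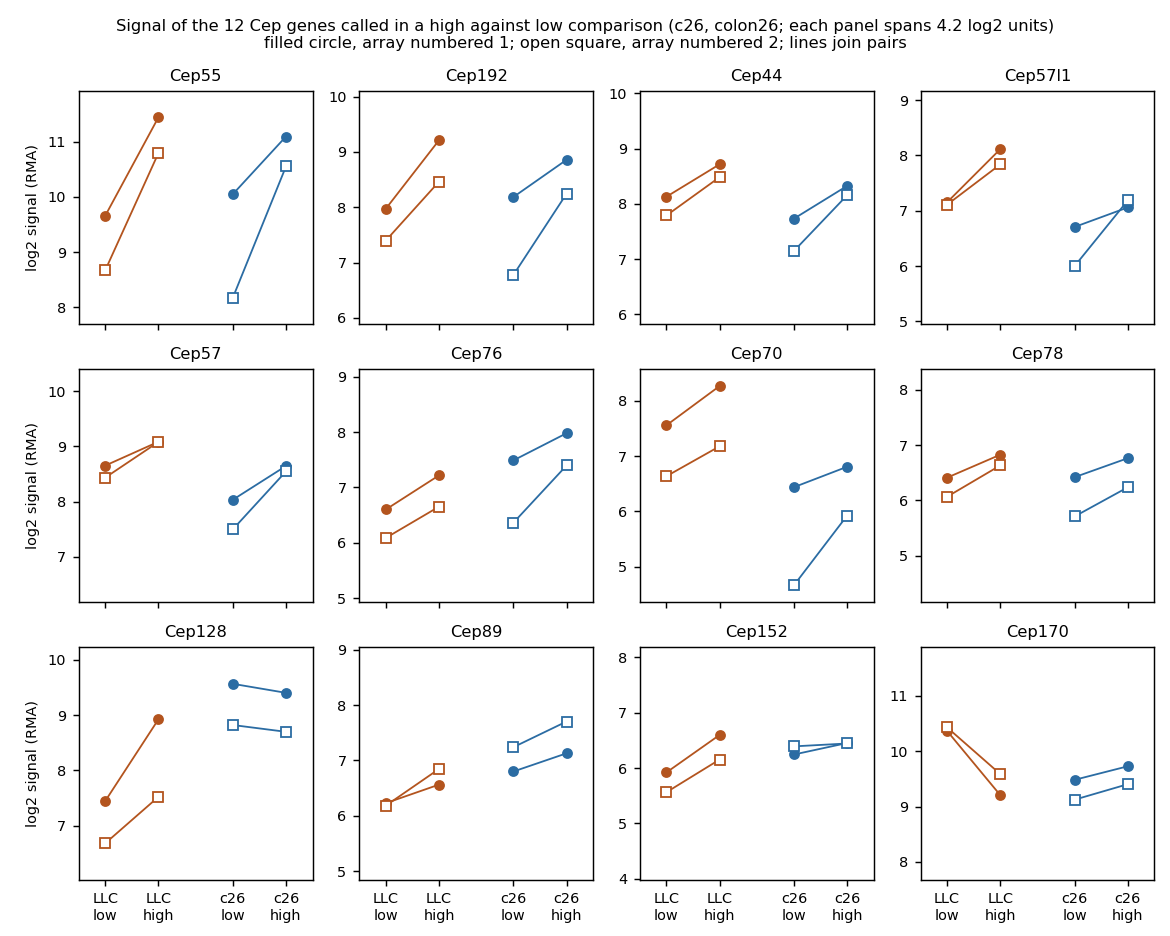
Log2 signal (y axis) of the 12 Cep genes called in at least 1 comparison of EGFP-high with EGFP-low cells, by group (x axis); each point is 1 array, filled circles are arrays numbered 1, open squares those numbered 2, and lines join the low and high array of a pair. The lines rise for Cep55 in all 4 pairs, whereas those of Cep170 fall in LLC only.

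Cep55, the abscission protein, had the largest change of the Cep genes in both lines. On the LLC arrays it measured 9.66 and 8.67 in low cells and 11.44 and 10.79 in high cells. On the colon26 arrays it measured 10.05 and 8.18 in low cells and 11.09 and 10.55 in high cells. High and low arrays did not overlap in either line, and every pair rose. The change was 1.95 in LLC (SE 0.28, a 3.86-fold difference, adjusted p = 0.0017) and 1.71 in colon26 (SE 0.28, a 3.27-fold difference, adjusted p = 0.0068). Between the lines the change differed by 0.24, with a 95% interval from -0.63 to 1.11 and an adjusted p of 0.82. A second probe set of Cep55 gave changes of 2.47 and 2.21. The colon26 rise rests more on the pair numbered 2, in which the low array was the lowest of all 8, and without that pair the colon26 call was lost.

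The group of genes for centriole duplication, cartwheel and length held 14 Cep genes, of which 12 were tested. Over both lines 6 of the 12 rose and 0 fell, with a median change of 0.45, beside 7.47% of all genes called higher, 5.57% called lower and a median of 0.04. All 12 changes were above 0, as were 56.3% of those of all genes. At an unadjusted p under 0.05, 8 rose and 0 fell. The 6 were Cep192, Cep44, Cep57l1, Cep57, Cep76 and Cep78. The roles were assigned with earlier results known. Cep192 is listed here for its part in duplication, and its rise would leave this group if it were listed by its part in spindle assembly.

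Cep192, which recruits Plk4 and Aurora A to centrosomes and is needed for spindle assembly, measured 7.98 and 7.40 in LLC low cells and 9.21 and 8.46 in LLC high cells. In colon26 it measured 8.19 and 6.78 in low cells and 8.86 and 8.25 in high cells. The fractions were separate in both lines. The change was 1.15 in LLC (adjusted p = 0.0074) and 1.07 in colon26 (adjusted p = 0.021), and over both lines 1.11 (SE 0.15, adjusted p = 9.8e-04). Its second probe set changed by 0.54 over both lines (adjusted p = 0.036 over all probe sets).

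Cep57 and its paralogue Cep57l1 both hold the new centriole to the old one until mitosis ends. Cep57l1 measured 7.15 and 7.11 in LLC low cells, 8.11 and 7.84 in LLC high cells, 6.71 and 6.00 in colon26 low cells and 7.06 and 7.19 in colon26 high cells. Cep57 measured 8.65 and 8.44 in LLC low cells, 9.08 and 9.08 in LLC high cells, 8.03 and 7.50 in colon26 low cells and 8.65 and 8.55 in colon26 high cells. For both genes the high arrays lay above the low arrays in each line. Cep57l1 rose by 0.81 over both lines (SE 0.16, adjusted p = 0.0074), and by line its change was 0.84 in LLC (adjusted p = 0.035) and 0.77 in colon26 (adjusted p = 0.10). Cep57 rose by 0.68 over both lines (SE 0.13, adjusted p = 0.0082), with 0.54 in LLC (adjusted p = 0.10) and 0.83 in colon26 (adjusted p = 0.040). The difference of the change between lines was not called for either paralogue (adjusted p = 0.94 and 0.65). The other tested probe sets were not called over both lines. They gave 0.34 for Cep57l1 (limma, adjusted p = 0.13 over all probe sets) and 0.40 for Cep57 (adjusted p = 0.081). With probe sets averaged, both genes kept their calls over both lines, and Cep57l1 lost its LLC call. Over 15 other settings, the colon26 call of Cep57 was lost in 7 and the LLC call of Cep57l1 in 6.

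Cep44, a protein of the centriole lumen needed to turn a new centriole into a centrosome, measured 8.13 and 7.79 in LLC low cells, 8.72 and 8.48 in LLC high cells, 7.73 and 7.15 in colon26 low cells and 8.33 and 8.16 in colon26 high cells. No high array fell within the range of the low arrays of its line. The change over both lines was 0.72 (SE 0.13, adjusted p = 0.0056), made up of 0.64 in LLC (adjusted p = 0.054) and 0.80 in colon26 (adjusted p = 0.043). The other tested probe set of Cep44 changed by 0.12 over both lines (adjusted p = 0.65), and with its probe sets averaged the change was 0.33 and the calls were lost. Its colon26 call was lost in 11 of 15 other settings.

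Cep76, which restrains a further round of duplication, measured 6.60 and 6.09 in LLC low cells, 7.22 and 6.65 in LLC high cells, 7.49 and 6.36 in colon26 low cells and 7.98 and 7.40 in colon26 high cells. Its fractions were separate in LLC and overlapped in colon26, where the low array numbered 1 exceeded the high array numbered 2. Within pairs the change was 0.68 over both lines (SE 0.14, adjusted p = 0.0094). Cep78, a centriole wall protein, measured 6.41 and 6.07 in LLC low cells, 6.83 and 6.63 in LLC high cells, 6.42 and 5.71 in colon26 low cells and 6.76 and 6.24 in colon26 high cells. It overlapped in colon26 as well, and its change of 0.46 (SE 0.13, adjusted p = 0.038) passed narrowly. That call was lost in 8 of 13 other settings.

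Cep152, the scaffold that brings Plk4 to the parent centriole together with Cep63, was called in LLC and not over both lines. It measured 5.92 and 5.56 in LLC low cells, 6.60 and 6.15 in LLC high cells, 6.25 and 6.39 in colon26 low cells and 6.45 and 6.44 in colon26 high cells. The high arrays lay above the low arrays in both lines, by a small margin in colon26. The change was 0.63 in LLC (SE 0.18, adjusted p = 0.045) and 0.13 in colon26 (adjusted p = 0.74), and the difference of 0.50 between these was not called (adjusted p = 0.39). The LLC call was lost in 11 of 14 other settings, with adjusted p between 0.028 and 0.75 over the 14. Its binding partner Cep63 changed by 0.16 over both lines (adjusted p = 0.46). The other tested genes of the group had changes over both lines of 0.43 for Cep85, which binds Stil, 0.37 for Cep295, which prepares the new centriole to become a centrosome, 0.09 for Cep97, which caps centrioles, and 0.08 for Cep120, which lengthens them. None of these 4 passed the test, the smallest adjusted p being 0.11.

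Among the 9 tested genes for pericentriolar material, satellites, linker and microtubule binding, 1 rose over both lines and 0 fell, with a median change of -0.12. That share is close to the 7.47% of all genes called higher and 5.57% called lower. At an unadjusted p under 0.05, 2 rose and 1 fell. Cep70, which binds gamma-tubulin, was the one that rose. It measured 7.56 and 6.64 in LLC low cells, 8.27 and 7.18 in LLC high cells, 6.44 and 4.66 in colon26 low cells and 6.81 and 5.92 in colon26 high cells. The fractions overlapped in each line while every pair rose, and the change over both lines was 0.72 (SE 0.16, adjusted p = 0.015).

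Cep170 went the other way in LLC. This protein marks the subdistal appendages of the older centriole and binds microtubules. It measured 10.37 and 10.43 in LLC low cells against 9.21 and 9.59 in LLC high cells. In colon26 it measured 9.48 and 9.13 in low cells and 9.73 and 9.41 in high cells. The LLC fractions were separate, the colon26 fractions overlapped, and both LLC pairs fell while both colon26 pairs were higher in high cells. The change was -1.002 in LLC (SE 0.18, adjusted p = 0.0061), a 2.00-fold lower signal, and 0.26 in colon26 (adjusted p = 0.50). The difference between the changes was -1.26 (SE 0.26, adjusted p = 0.044), and Cep170 was the one Cep gene for which that difference was called lower in LLC, where 0.985% of all genes were. For 0 Cep genes was it called higher in LLC, against 0.427% of all genes, with 1 at an unadjusted p under 0.05. A second probe set of Cep170 gave -0.81 in LLC (adjusted p = 0.037) and 0.50 in colon26, with a difference of -1.32 (adjusted p = 0.081). The call on the difference was lost in each of the 4 fits that left out 1 pair, with values between -1.42 and -1.11. The LLC call on Cep170 was lost without either LLC pair. The paralogue Cep170b changed by -0.57 in LLC (adjusted p = 0.078) and 0.02 in colon26, and Cep350, which anchors microtubules, by -0.46 and 0.08, neither passing the test. Fibroblast markers fell alongside Cep170 in LLC, by a median of 2.08, and their part in its change was not tested.

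The linker proteins Cep250 and Cep68 changed over both lines by -0.12 and 0.25. Cep250 was the only one of the 35 genes lower in EGFP-high cells in all 4 pairs, where 9.24% of all genes were, whereas 15 were higher in all 4 pairs, or 42.9% against 21.4% of all genes. The changes of Cep131, a satellite protein, Cep95 and Cep112 were -0.15, -0.02 and 0.29. None of these 5 passed.

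**Figure D2:**
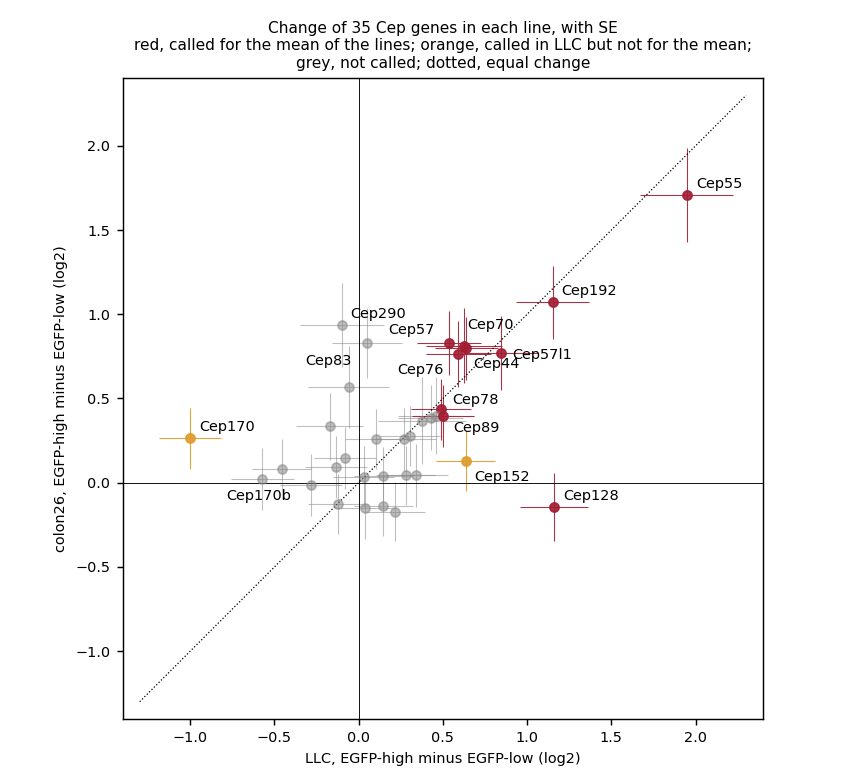
Change between EGFP-high and EGFP-low cells in LLC (x axis) and colon26 (y axis), log2, for the 35 tested Cep genes; points are the mean of 2 pairs with SE, and the dotted line marks equal change. Cep55 and Cep192 lie at the upper right near that line, Cep128 lies to its right with a change of 1.16 in LLC and -0.14 in colon26, and Cep170 lies to its left with -1.002 and 0.26.

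Of the 11 tested genes for appendages, transition zone and cilium, 2 rose over both lines and 0 fell, beside 7.47% and 5.57% of all genes. The median change was 0.26 and, at an unadjusted p under 0.05, there were 5 rises and 0 falls. Cep170 is listed with the microtubule genes here, and its fall with an unadjusted p under 0.05 would count in this group if it were listed by its place at the appendages. The 2 were Cep128 and Cep89. Cep128 is a subdistal appendage protein. It measured 7.45 and 6.68 in LLC low cells and 8.92 and 7.52 in LLC high cells. In colon26 it measured 9.57 and 8.82 in low cells and 9.40 and 8.70 in high cells. High lay above low in LLC with little space between, and the colon26 fractions overlapped with both pairs slightly lower. The change was 1.16 in LLC (SE 0.20, adjusted p = 0.0049) and -0.14 in colon26 (adjusted p = 0.75), and the change over both lines was 0.51 (SE 0.14, adjusted p = 0.041). The call over both lines was lost in 9 of 14 other settings. The difference of 1.30 between the lines narrowly missed the threshold (adjusted p = 0.060). The chosen probe set carries the suffix x, which the maker gives to probe sets that may bind related transcripts. Cep128 also has probe sets without that suffix, and of those that passed the filter the first carries the suffix s and the second neither. They changed by 1.24 and 1.47 in LLC (adjusted p = 0.0028 and 0.0018 over all probe sets). In colon26 they changed by 0.14 and 0.13, not called, and over both lines by 0.69 and 0.80 (adjusted p = 0.0081 and 0.0056), so the sign below 0 in colon26 was seen in the chosen probe set only.

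Cep89, a distal appendage protein, measured 6.23 and 6.18 in LLC low cells, 6.56 and 6.85 in LLC high cells, 6.80 and 7.24 in colon26 low cells and 7.13 and 7.70 in colon26 high cells. The LLC fractions were separate and the colon26 fractions overlapped. Its change over both lines was 0.45 (SE 0.13, adjusted p = 0.047), the closest to the threshold of the 10. That call was lost in 11 of 14 other settings. The other distal appendage genes gave 0.44 for Cep83 (adjusted p = 0.079) and 0.00 for Cep164. Cep83 and Cep290, a transition zone protein, had changes of 0.83 and 0.93 in colon26 (adjusted p = 0.060 and 0.077) beside 0.05 and -0.10 in LLC. Their differences between lines did not pass (adjusted p = 0.27 and 0.23). Cep43 and Cep20, related proteins at the centriole and cilium base, changed by 0.41 and 0.26 over both lines. Cep41, which acts in tubulin glutamylation, Cep162, a transition zone protein, Cep19, which acts early in cilium formation, and Cep126 changed by 0.19, 0.18, 0.03 and -0.06. The last group, with no role assigned, held Cep295nl and Cep83os, which changed by 0.02 and 0.03.

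High arrays lay above low arrays in both lines for 6 of the 35 genes, Cep55, Cep192, Cep44, Cep57, Cep57l1 and Cep152, where 5.82% of all genes did so. Among the 35, both LLC high arrays lay above both LLC low arrays for 11 genes (17.4% of all genes tested did) and below for 2 (14.6%). Both colon26 high arrays lay above for 10 (12%) and below for 0 (9.02%). For all 10 genes that rose, high minus low in colon26 was the higher value in the pair numbered 2. For Cep128 both values were below 0, at -0.16 and -0.12. The share of all genes with that order was not counted. The median change of the 35 genes in the 4 pairs was 0.23 and 0.20 in LLC and 0.12 and 0.28 in colon26, against medians over all genes tested of 0.05, 0.03, 0.02 and 0.18.

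Genes that work with the Cep proteins were taken as 5 lists. Of the 21 tested partners in centriole assembly, 13 rose over both lines and 0 fell, with a median change of 0.51. Nek2, the kinase that dissolves the linker between parent centrioles, rose by 1.92 (adjusted p = 8.3e-05). The master kinase Plk4 rose by 1.72 (adjusted p = 2.5e-04), and the cartwheel genes Stil and Sass6 rose by 1.63 and 1.43 (adjusted p = 9.2e-05 and 2.2e-04). Among 8 tested subunits of augmin, which branches spindle microtubules, 6 rose and 0 fell, including Haus6 by 1.08, Haus3 by 1.03, Haus1 by 1.01 and Haus5 by 0.88. Of 22 tested genes for pericentriolar material and gamma-tubulin, 7 rose and 0 fell. Tacc3, a spindle protein, rose by 1.80, Tubg1, the gamma-tubulin gene, by 0.95, Ckap5, a microtubule polymerase, by 0.78 and Pcnt, the pericentrin gene, by 0.62. Among 18 tested partners of Cep55 in abscission, a list that includes ESCRT genes, 8 rose, 0 fell and 10 were not called. Prc1 and Kif20a, both of the central spindle, rose by 2.02 each. Racgap1 and Kif23, which form the centralspindlin complex, rose by 1.64 and 1.47. The median change of the 18 was 0.21 and the lowest -0.43, with 8 rises and 1 fall at an unadjusted p under 0.05. For the 28 tested genes of the cilium and intraflagellar transport, limma called 0 in either direction, with 3 rises and 0 falls at an unadjusted p under 0.05 and a median change of 0.02. The 2 of these with the highest signal, Ift57 and Ift74, changed by -0.15 and 0.16. In all, 34 of the 97 partner genes tested rose, beside 7.47% of all genes. Without the pair numbered 2 of colon26 the count was 18.

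Between the lines, 24 of the 35 Cep genes differed, or 68.6%, where 58.6% of all genes did. Averaged over low and high cells, 17 of the 35 were lower in colon26 than in LLC, or 48.6% against 25.5% of all genes, and 7 were higher, or 20% against 33.1%. Fitted without the shared number, 4 were called lower and 5 higher, beside 1276 and 1824 of all 12177 genes. Among the 17 is Cep83os, a transcript that starts on the strand opposite Cep83 and that passed the filter through its LLC arrays only. It measured 7.07 and 7.43 in LLC low cells, 7.16 and 7.17 in LLC high cells, 4.57 and 4.45 in colon26 low cells and 4.67 and 4.65 in colon26 high cells. All colon26 arrays were under 5 and all LLC arrays above 7. Against a log2 of 5, its signal was at least 4.62-fold higher in LLC (means 7.21 in LLC and 4.59 in colon26); since the filter kept it for its LLC values, its call is a description. Without it, 16 genes were called lower in colon26.

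Cep83 starts on the plus strand, 177 bases from the Cep83os start and pointing away from it. The last of the printed runs ends just before the Cep83 start and contains the Cep83os start. Cep83 measured 9.56 and 9.09 in LLC low cells, 9.75 and 8.99 in LLC high cells, 8.16 and 6.78 in colon26 low cells and 8.66 and 7.93 in colon26 high cells. Every colon26 array was below every LLC array, and the difference was -1.46 (adjusted p = 1.4e-04). With the sort, neither gene was called in either line.

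Cep112 measured 8.48 and 7.44 in LLC low cells, 8.70 and 7.83 in LLC high cells, 7.14 and 6.16 in colon26 low cells and 7.39 and 6.47 in colon26 high cells. Colon26 lay below LLC on every array, and the difference was -1.33 (SE 0.12, adjusted p = 3.3e-05). This probe set carries the suffix x as well, and the other tested probe set of Cep112 gave 0.46 (adjusted p = 0.077), so the value holds for this probe set only. Cep128 was the gene with the largest difference upward, 1.48 (SE 0.15, adjusted p = 8.6e-05), and its values above show the lines closer in high than in low cells. Cep70 differed by -1.45 (adjusted p = 1.8e-04).

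Of the duplication genes, Cep295, Cep57l1, Cep57, Cep120, Cep63 and Cep44 were lower in colon26, by -0.87 to -0.44, whereas Cep97 and Cep76 were higher by 0.75 and 0.67. Of the material and linker group, Cep350, Cep95 and Cep170 were lower, at -0.93, -0.68 and -0.46, beside Cep112 and Cep70, and Cep170b was higher at 0.74. Among appendage and cilium genes, Cep41, Cep290, Cep19 and Cep164 were lower, at -0.95, -0.86, -0.76 and -0.57, beside Cep83, whereas Cep126 and Cep89 were higher at 0.98 and 0.76, beside Cep128. Cep295nl was higher at 0.89. The 11 genes that were not called were Cep20, Cep152, Cep68, Cep85, Cep78, Cep192, Cep131, Cep55, Cep162, Cep250 and Cep43. Cep55 was among the closest, at -0.17 with a 95% interval from -0.67 to 0.32. All 4 colon26 arrays lay below all 4 LLC arrays for 7 of the 35 genes (13.3% of all genes) and above for 3 (19.9%).

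**Figure D3:**
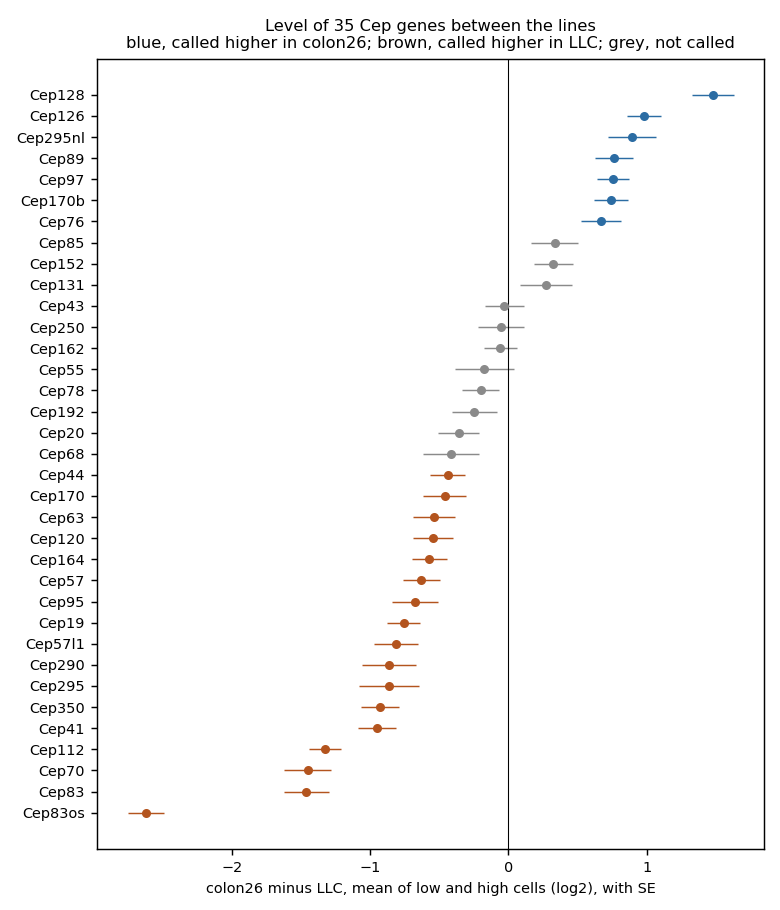
Difference between colon26 and LLC (x axis, log2, mean of low and high cells, with SE) for each of the 35 tested Cep genes (y axis), ordered by size. Cep83os is drawn farthest to the left, with colon26 values under the filter level of 5 that make its size a bound, and Cep128 farthest to the right at 1.48, with 17 genes called lower and 7 called higher in colon26.

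The probe sets of a gene did not always tell the same story. Of the 35 genes, 19 had more than 1 tested probe set, and the sign of the difference between the lines was the same in all probe sets for 15 of them. Cep97 was the only one with probe sets called in opposite directions. The probe set used gave 0.75 and another 0.73, whereas the remaining ones gave -1.75 (adjusted p = 4.5e-05) and -0.84 (adjusted p = 0.032), so the direction for Cep97 depends on the probe set. For Cep162 and Cep68, whose chosen probe sets were not called between the lines, another probe set was called, at -1.13 (adjusted p = 3.1e-04) and 1.19 (adjusted p = 2.5e-04). The second tested probe sets of Cep83os and Cep83 were lower in colon26 too, with colon26 group means under 5. In no comparison of high with low cells were probe sets of 1 Cep gene called in opposite directions.

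**Figure D4:**
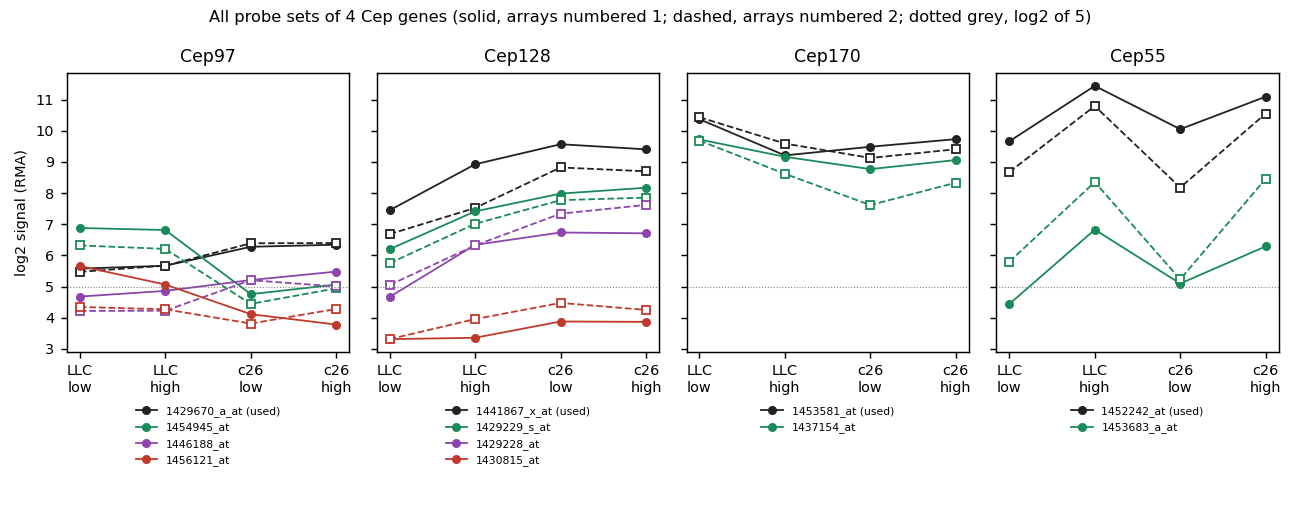
Log2 signal (y axis) of all probe sets of 4 Cep genes by group (x axis); solid lines are arrays numbered 1, dashed lines arrays numbered 2, and the dotted grey line is a log2 of 5. For Cep97 some probe sets are higher in colon26 and others higher in LLC, by 0.75 and -1.75 for the pair with the highest signal.

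The number of the array moved many Cep genes. In all 4 groups the array numbered 2 was lower than that numbered 1 for 23 of the 35 genes, or 65.7% against 30.6% of all genes, and higher for 2, Cep85 and Cep250, against 30.5%. The difference averaged over groups ranged from -2.90 for Cep295 to 1.18 for Cep85, with a median of -0.44, where the median of all genes tested was close to 0. Cep295 measured 7.53 and 4.49 in LLC low cells, 8.05 and 4.72 in LLC high cells, 6.15 and 4.14 in colon26 low cells and 7.12 and 3.91 in colon26 high cells. All of its arrays numbered 2 were under 5. The spread over the 2 arrays of a group is therefore wide for many Cep genes, and the values of change above were taken within a number. The 3′ to 5′ difference of the control transcripts moved with the number as given above, and its part in these values was not tested.

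**Figure D5:**
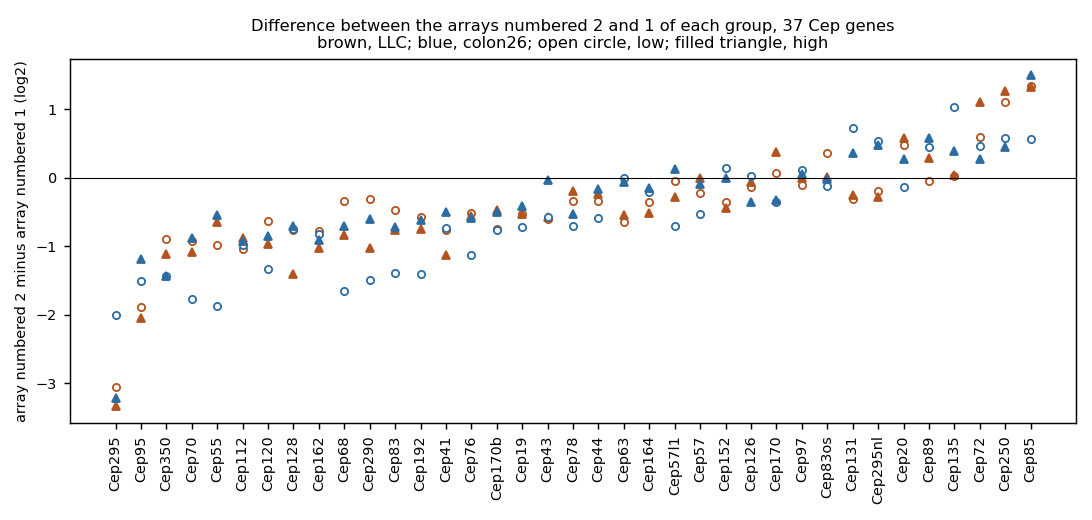
Signal on the array numbered 2 minus that on the array numbered 1 (y axis, log2) in each of the 4 groups for 37 Cep genes (x axis); brown is LLC, blue is colon26, open circles are low and filled triangles high cells. Most points lie below 0, with Cep295 lowest at a mean of -2.90 and Cep85 highest at 1.18.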

How the data were processed

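RNA of 8 sorted samples (4 groups of 2) was hybridised to 1-colour Affymetrix arrays, each labelled from 6 ug of total RNA per the labels' protocols. The authors deposited log2 signals for 45101 probe sets, made with RMA per the submitters' processing notes, which name the method only. The version was not given in the sources used here. RMA in general sets arrays to a like distribution, which hides a general shift in RNA content. The deposited values were not fully alike, with array medians from 4.76 to 5.02 and 10565 to 11869 genes above a log2 of 5. Probe sets naming 1 gene symbol (34945) were kept, 932 naming several and 9160 naming none were not, and the one with the highest mean represented each gene. Genes above a log2 of 5 on at least 2 arrays (12177) entered fits in limma 3.58.1 (R 4.3.3). High against low used line and number together as a block (2 residual degrees of freedom, 8.25 from the prior); the lines were compared with the number as a shared term. P-values were Benjamini-Hochberg adjusted over all genes tested, or over all probe sets for single probe sets. The pairing was taken from the replicate numbers in the labels. Deviations of same-numbered arrays correlated at 0.89 in LLC and 0.84 in colon26. The arrays numbered 1 and 2 stood apart in all 4 groups. This correlation is therefore no check that the low and high samples of a number share an origin.

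The members, roles, partner and marker lists were chosen with earlier results of these data known. Arrays were given in full for Cep genes called in the sort, for the 3 with the smallest adjusted p between the lines, and for others chosen after their values were seen (Cep83, Cep295). Of each partner list, up to 4 called genes with the smallest p were named. The script was tested on simulated data. Alternatives tried were the block, the filter, the scaling, the moderation, the probe set and leaving out each pair. The labels' descriptions of colon26 samples name the LLC line, and the groups were taken from the titles and cell line entries. Few arrays limit the precision.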

Additional observations from a re-analysis of the deposited data

Results flagged for a closer look

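The change of Cep170 between EGFP-high and EGFP-low cells differed between the lines by a test of the difference itself. It was -1.002 in LLC and 0.26 in colon26, a difference of -1.26 (limma, adjusted p = 0.044), with both LLC pairs lower and both colon26 pairs higher in EGFP-high cells. Over the other settings tried the difference stayed between -1.42 and -1.09, and the adjusted p between 0.0059 and 1.00.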

How the results depend on the processing

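Counts of Cep genes called depended on the settings, and the cause was not tested. With no replicate block, rises fell from 5 to 0 in LLC, from 4 to 0 in colon26 and from 10 to 0 over both lines, the LLC fall and the difference of Cep170 from 1 to 0, partner genes from 34 to 0, and Cep genes lower in colon26 from 17 to 4. Of all genes tested, 0 were then called higher with the sort in either line or over both. Those called lower in colon26 than in LLC went from 3104 to 1276. With the block shared by the lines, or no filter, 3 Cep genes rose in LLC and 1 rose in colon26. For 0 of them was the LLC change minus the colon26 change then called. A filter at 7 gave 2 falls in LLC, 8 rises in colon26 and 1 such difference of the changes upward. The filter on the mean, median centring, and trend with robust moderation also gave 1 such difference upward, the last with 1 fall over both lines. Rises in colon26 numbered 0 after quantile normalization, 9 after median centring, and 2 both with averaged probe sets and with each probe set fitted singly. Cep170's difference was called 0 times after quantile normalization and with single probe sets. Leaving out 1 pair gave 1 to 4 rises and 0 to 1 falls in LLC, 0 to 5 rises in colon26, 2 to 8 over both lines, 0 called differences of Cep170 each time, and 18 to 30 partner genes. Median centring turned the median line difference of all genes from 0.08 to -0.08, and the split of all genes called from 4029 higher and 3104 lower in colon26 to 2937 and 3752. Quantile normalization turned that of the colon26 sort from 266 higher and 193 lower to 43 and 109.

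Cep55 and Cep192 kept their calls over both lines in 13 of 14 alternatives, all but the fit without the block. Cep128 kept its call between lines in 13 of 13. Other probe sets of Cep97, an alternative chosen after seeing the data, reversed its line difference to -1.75 and -0.84. The others of the 10 lost their call in 2 to 11 settings, and signal near background limits Cep83os in colon26, where its difference is a bound, and the arrays numbered 2 of Cep295.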
